A study of Arabidopsis thaliana with 11 samples.

Results

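Suberin and cutin are plant polyesters of long fatty acids and glycerol. The genes that make them were followed in Arabidopsis thaliana endosperm that is homozygous for a mutation of NRPD1, a subunit of RNA polymerase IV, or carries the mutant copy from the father alone. The set holds 40 loci, named by their gene identifiers: 18 suberin genes, 15 cutin genes and 7 genes of wax synthesis or of transport shared between these layers. All 40 were present among the 63867 features of the experiment 1 count tables and the 37336 features of the experiment 2 tables, of which 32005 occur in both. The rule lists the loci by identifier and sets no threshold on their counts. Members and lists were still chosen with earlier results of these data known, so counts and medians over them are descriptions.

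The endosperm is the seed tissue that feeds the embryo, and it carries 2 maternal genomes and 1 paternal genome. All 11 libraries came from a Ler mother and a Col father, and a difference between parents is also one between strains. At some genes of a deposited list of 5081 genes, among them NRPD1 and the members KCS6 and LACS2, homozygous nrpd1 had no Ler read, so there the reads were not those of a Ler mother, and the mutation and the strain of the allele cannot be told apart. Of the 40 genes, 10 are on this list. In experiment 1, homozygous nrpd1 endosperm (3 libraries) came from an nrpd1a-4 mother in Ler and an nrpd1a-4 father in Col, and wild type (2 libraries) from a Ler mother and a Col father, both dissected by hand 6 days after pollination. In experiment 2, paternal nrpd1 endosperm (3 libraries) came from a wild-type Ler mother and an nrpd1a-4 father in Col, and wild type (3 libraries) from Ler and Col parents, taken 6 to 7 days after pollination. RNA polymerase IV acts at the start of the small RNA pathway that guides DNA methylation in plants, NRPD1 is its catalytic subunit, and every mutant cross used the single allele nrpd1a-4. The library kit, the read length and single or paired reading differed between the experiments, so each mutant was set against the wild type of its own experiment. Each library pooled seeds of crosses between several plants, and p-values measure the spread between these libraries.

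Both polyesters are built from fatty acids that are activated to their coenzyme A forms, lengthened by 3-ketoacyl-CoA synthases, oxidised by cytochrome P450 enzymes of the CYP86 and CYP77 families and joined to glycerol by GPAT acyltransferases. ABCG transporters and lipid transfer proteins anchored to the membrane carry the building blocks to the cell wall. Suberin also holds ferulate, attached by acyltransferases such as ASFT, and primary alcohols made by FAR reductases, and it seals roots, wounds and the seed coat. Cutin covers the epidermis of shoots and of embryos.

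NRPD1 itself had 26.5, 22.0 and 30.7 CPM (counts scaled to a common library size, with TMM factors) in homozygous nrpd1, against 47.5 and 39.6 in wild type, with a log2 change of -0.72 (SE 0.16, edgeR adjusted p = 0.238). It had 5.89, 1.79 and 4.17 CPM in paternal nrpd1, against 8.41, 10.4 and 10.4 in wild type (log2 change -1.30, SE 0.46, edgeR adjusted p = 0.616). Transcript was thus still counted in both mutants, and the tables do not show a loss of function. NRPD1 is on the deposited list, and all of its 191, 136 and 268 allele reads in homozygous nrpd1 were Col, against 105 and 109 Ler and 221 and 194 Col reads in wild type. In paternal nrpd1 it had 20, 1 and 10 Ler and 9, 1 and 11 Col reads, against 10, 33 and 27 Ler and 10, 36 and 15 Col reads in wild type. Homozygous nrpd1 replicate 2 stood apart from the other experiment 1 libraries. Its Spearman correlations with them over the tested features ran from 0.952 to 0.974, against 0.981 to 0.992 among the other 4, its 12 seed storage genes summed to 56181 CPM against 19193 to 27419 in the others, and its 10 heat shock genes to 242 CPM against 89.1 to 100.1. In experiment 2, paternal nrpd1 replicate 2 had 543 CPM of heat shock transcripts, against 47.6 to 114 in the other 5 libraries. The 12 endosperm markers summed to 613 to 896 CPM in homozygous nrpd1 and 853 to 974 CPM in wild type, and to 435 to 495 CPM in paternal nrpd1 and 571 to 624 CPM in wild type. Nearly all of this came from SUC5, ALE1, ZOU and HDG3, while the median marker had 0.570 to 1.17 CPM in experiment 1, and IKU2 and MINI3 were at or near 0 in every library of both experiments.

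The suberin genes had the larger sums in homozygous nrpd1, while the sums of the cutin genes overlapped between the genotypes. Only 1 suberin gene was called on its own by edgeR, AT2G48130, and it is on the deposited list. The 18 suberin genes summed to 414, 494 and 199 CPM in homozygous nrpd1, against 47.9 and 136.9 CPM in wild type, a ratio of means of 3.99. The 15 cutin genes summed to 449.8, 408 and 312 CPM in homozygous nrpd1, against 298 and 319.9 CPM in wild type, a ratio of 1.26. The 7 wax or shared genes summed to 358, 359 and 242 CPM in homozygous nrpd1, against 213 and 213 CPM in wild type. The suberin and wax or shared sums did not overlap between the groups, while the lowest homozygous nrpd1 cutin sum lay below the higher wild-type one. The leading 3 genes gave 73.0% to 76.8% of the suberin sum and 80.4% to 84.8% of the cutin sum in homozygous nrpd1. The deposited list holds 2 of the suberin and 6 of the cutin genes. LACS1, a cutin gene on that list, averaged 141.8 CPM in homozygous nrpd1 and 88.5 CPM in wild type. Replicate 2, which stood apart, had the highest suberin sum, and without it the mutant sums were 414 and 199 CPM, still above both wild-type libraries.

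**Figure D1:**
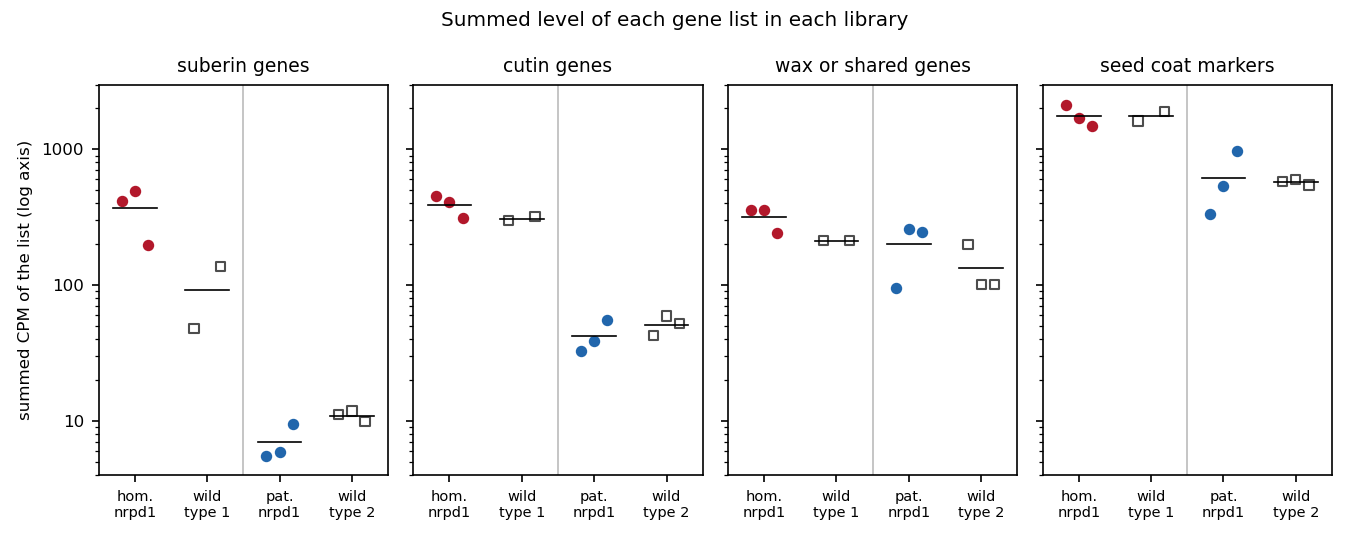
Summed CPM of the suberin, cutin and wax or shared genes and of 18 seed coat markers in each library (log axis, points are libraries, lines are group means), with homozygous nrpd1 and its wild type left of the grey line and paternal nrpd1 and its wild type right of it. The 3 homozygous nrpd1 libraries lie at 199 to 494 CPM for the suberin genes, above the wild-type libraries at 47.9 and 136.9, while the seed coat marker sums of the same libraries overlap. The higher of these wild-type seed coat sums is of replicate 2. Its marker reads outside the deposited list were 5743 Ler and 8792 Col.

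Across genes, every homozygous nrpd1 library lay above both wild-type libraries for 9 of 18 suberin genes, 2 of 15 cutin genes and 5 of 7 wax or shared genes. The same order held for 13.9% of the 25727 features with a count in experiment 1. The opposite order held for 0 suberin genes and for 1 cutin gene, CYP77A6, with 2 reads in homozygous nrpd1 and 7 in wild type, beside 14.1% of all features. In edgeR's quasi-likelihood test 3 of the 40 genes were called at an adjusted p under 0.05, all of them higher, against 0.334% of 18570 features called in either direction and 0.232% called higher. Of the 12 suberin genes that passed the filter on low counts, all 12 had a positive log2 change, with a median of 3.48. The 10 cutin genes that passed had 6 positive and 4 negative changes and a median of 0.31, and all tested features had a median of 0.00261. A gene that passed the filter through the mutant libraries alone had to be higher there, so these medians are descriptions. The suberin median was 3.32 without homozygous nrpd1 replicate 2. DESeq2 called 11 of the 40, all higher, beside 1.81% of 20612 features called higher and 2.54% called in either direction, and 7 of those 11 were suberin genes.

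The 3 called genes all belong to the superfamily of lipid transfer proteins, which carry lipids through the cell wall. AT3G22620 had 29.9, 21.0 and 16.0 CPM in homozygous nrpd1, against 0.112 and 0.208 CPM in wild type. Its log2 change was 7.05 (SE 0.48, edgeR adjusted p = 0.0149). Wild type held 2 and 4 reads of this gene, and every mutant library lay far above them. LTPG5 (AT3G22600) had 23.7, 21.6 and 16.8 CPM in homozygous nrpd1, against 0.503 and 0.988 CPM in wild type (log2 change 4.77, SE 0.33, edgeR adjusted p = 0.0149). Its groups did not overlap either. AT2G48130, a gene of the deposited list counted here among the suberin genes, had 18.6, 18.5 and 9.04 CPM in homozygous nrpd1, against 0.112 and 0.364 CPM in wild type, without overlap (log2 change 5.95, SE 0.60, edgeR adjusted p = 0.0331). It had no allele read in wild type, so for this gene the mutation and the strain of the allele cannot be told apart. None of these 3 calls remained when either wild-type library was left out, which leaves a lone wild-type library. AT2G48130 was also no longer called without homozygous nrpd1 replicate 1 or 2, and LTPG5 was not without replicate 1.

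LTPG5 and AT3G22620 are neighbours on chromosome 3. LTPG5 lies on the minus strand from 8006249 to 8007836 and AT3G22620 on the plus strand from 8008534 to 8009590, so they point away from each other with 697 bases and no annotated gene between them (TAIR10.1). AT2G48130 lies on chromosome 2 from 19682456 to 19686056 on the minus strand. The 250 bases before the annotated start of these 3 called genes are shown. Those of GPAT4, the cutin gene with the lowest p, which was not called, are shown beside them. They were read from the RefSeq TAIR10.1 genome, 5′ to 3′ on the strand of each gene. Capitals mark the hexamer ACCAAC, its variant ACCTAC, the hexamer ACCAAA and its variant ACCTAA on either strand, short elements of the kind that MYB factors of the phenylpropanoid and suberin pathways are known to bind.
LTPG5, chr3:8007837-8008086, minus strand: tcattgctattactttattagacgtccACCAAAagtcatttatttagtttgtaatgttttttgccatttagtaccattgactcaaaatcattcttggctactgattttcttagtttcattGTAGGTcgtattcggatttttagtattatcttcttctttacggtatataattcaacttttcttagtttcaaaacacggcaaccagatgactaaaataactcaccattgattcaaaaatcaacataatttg
AT3G22620, chr3:8008284-8008533, plus strand: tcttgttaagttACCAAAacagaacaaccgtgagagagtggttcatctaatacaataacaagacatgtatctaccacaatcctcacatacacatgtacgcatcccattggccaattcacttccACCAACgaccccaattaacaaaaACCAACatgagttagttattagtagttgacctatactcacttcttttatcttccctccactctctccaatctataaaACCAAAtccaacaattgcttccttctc
AT2G48130, chr2:19686057-19686306, minus strand: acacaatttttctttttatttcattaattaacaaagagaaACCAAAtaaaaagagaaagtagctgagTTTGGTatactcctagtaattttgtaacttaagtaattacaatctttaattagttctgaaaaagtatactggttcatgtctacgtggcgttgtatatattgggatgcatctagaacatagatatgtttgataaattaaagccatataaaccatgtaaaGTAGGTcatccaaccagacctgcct
GPAT4, chr1:224352-224601, minus strand: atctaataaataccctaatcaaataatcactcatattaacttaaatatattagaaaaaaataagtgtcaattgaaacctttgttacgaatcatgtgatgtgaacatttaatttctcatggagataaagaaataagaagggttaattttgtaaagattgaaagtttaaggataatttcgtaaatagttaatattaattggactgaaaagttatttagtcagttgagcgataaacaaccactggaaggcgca
The windows of LTPG5, AT3G22620 and AT2G48130 held 2, 4 and 3 matches, and the GPAT4 window held 0. At least 1 of the 4 hexamers stood in 51.4% of 27443 windows of the same length before protein-coding genes, in 11 of 18 suberin windows, in 7 of 15 cutin windows and in 5 of 7 wax or shared windows. Shares over all windows count either strand. ACCAAA, which is in all 3 windows of the called genes, stood in 34.8% of them. ACCTAC, in the windows of LTPG5 and AT2G48130 on the other strand, stood in 4.60%, and ACCAAC, which AT3G22620 holds on its own strand, in 11.5%. A match describes these letters and is no evidence of binding.

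Among the acyltransferases and P450 enzymes of suberin, ASFT, which transfers ferulate to the fatty acids, had 96.4, 109.7 and 55.8 CPM in homozygous nrpd1, against 0.95 and 14.8 CPM in wild type. The wild-type libraries themselves differed widely, and all mutant libraries were higher (log2 change 3.46, SE 0.97, edgeR adjusted p = 0.318). CYP86B1, which oxidises very long fatty acids for suberin, had 43.0, 60.3 and 27.1 CPM in homozygous nrpd1, against 6.98 and 12.3 CPM in wild type, with no overlap (log2 change 2.17, SE 0.42, edgeR adjusted p = 0.18). GPAT5, the acyltransferase of root and seed coat suberin, had 67, 88 and 36 reads in homozygous nrpd1, against 0 in both wild-type libraries. Its level was at least 44.6-fold higher against a floor of 3 counts over the wild-type group, and its edgeR adjusted p was 0.139. The related GPAT7 had 4, 0 and 3 reads in homozygous nrpd1 and 0 in wild type, too few to be tested.

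FAR1, a reductase that makes primary alcohols for suberin, had 54, 98 and 31 reads in homozygous nrpd1, against 0 and 1 in wild type. The ratio of levels was 128 with an exact counting interval of 22.7 to 5094 (edgeR adjusted p = 0.146). FAR1 shares 1310 bases with the antisense gene AT5G22505, whose reads in experiment 1 were not analysed here. FAR4 and FAR5, its relatives, held 7, 10 and 2 reads and 0, 31 and 1 reads in homozygous nrpd1, against 0 and 2 and against 3 and 8 in wild type. FAR5, the P450 enzyme CYP86A1 and the caffeate transferase FACT differed from the rest. They were high in homozygous nrpd1 replicate 2 alone, at 2.08, 7.91 and 7.77 CPM, while the other mutant libraries lay at or below 0.381 CPM for all 3 genes, against 0.104 to 0.416 CPM in wild type. Replicate 2 gave the highest of the 3 mutant values in 14 of 18 suberin genes, and replicate 3 the lowest in 13.

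The suberin elongases and transporters were split. KCS20, a 3-ketoacyl-CoA synthase of suberin, had 4.52, 2.88 and 1.24 CPM in homozygous nrpd1, against 0 and 0.208 CPM in wild type, and KCS2, its closest relative in function, had 34.9, 38.5 and 14.8 CPM, against 4.58 and 23.3 CPM. KCS20 did not overlap between the groups and KCS2 did, since its lowest mutant value was below the higher wild-type one (log2 changes 4.65 and 1.07, SE 1.03 and 0.73, edgeR adjusted p = 0.225 and 0.579). ABCG20, a suberin transporter, had 178.5, 190.1 and 69.1 CPM in homozygous nrpd1, against 31.6 and 75.4 CPM in wild type. Its groups overlapped as well (log2 change 1.45, SE 0.56, edgeR adjusted p = 0.412). ABCG6, its partner in this role, had 6.81, 6.17 and 3.00 CPM in homozygous nrpd1, against 0.615 and 0.312 CPM in wild type, with no overlap (log2 change 3.51, SE 0.54, edgeR adjusted p = 0.117). ABCG2, a further suberin transporter, on the deposited list, had 8.98, 16.1 and 3.76 CPM in homozygous nrpd1, against 1.73 and 3.90 CPM in wild type, and overlapped.

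The suberin regulators MYB9 and MYB107, which activate suberin genes in the seed coat, were above wild type in all 3 mutant libraries. MYB9 had 90, 99 and 31 reads in homozygous nrpd1, against 3 and 0 in wild type, a ratio of 51.4 with an exact counting interval of 17.36 to 251 (edgeR adjusted p = 0.196). MYB9 shares 1447 bases with the antisense gene AT5G16780, which had 64.8 to 77.5 CPM in the mutant libraries and 71.3 to 71.4 CPM in wild type. Whether strand was used in counting is not given in the sources used here, so reads of such a pair cannot be told apart. The same holds for FAR1, and for KCS2, ABCG2, CYP86A2 and ABCG11, which share 2302, 2362, 782 and 429 bases with antisense long non-coding RNA genes. It holds too for the cutin gene CYP77A4, which lies within the antisense gene AT5G04670. CYP86A2 and ABCG11 also share 127 and 596 bases with the antisense protein-coding genes AT4G00370 and AT1G17850. MYB107 had 9.04, 13.7 and 9.42 CPM in homozygous nrpd1, against 0.447 and 5.51 CPM in wild type (log2 change 1.83, SE 0.85, edgeR adjusted p = 0.462). The mutant libraries lay above both wild-type libraries, which differed from each other, and wild-type replicate 2 was the higher one in 11 of 18 suberin genes. MYB41 had 1, 2 and 0 reads in homozygous nrpd1 and 0 in wild type.

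**Figure D2:**
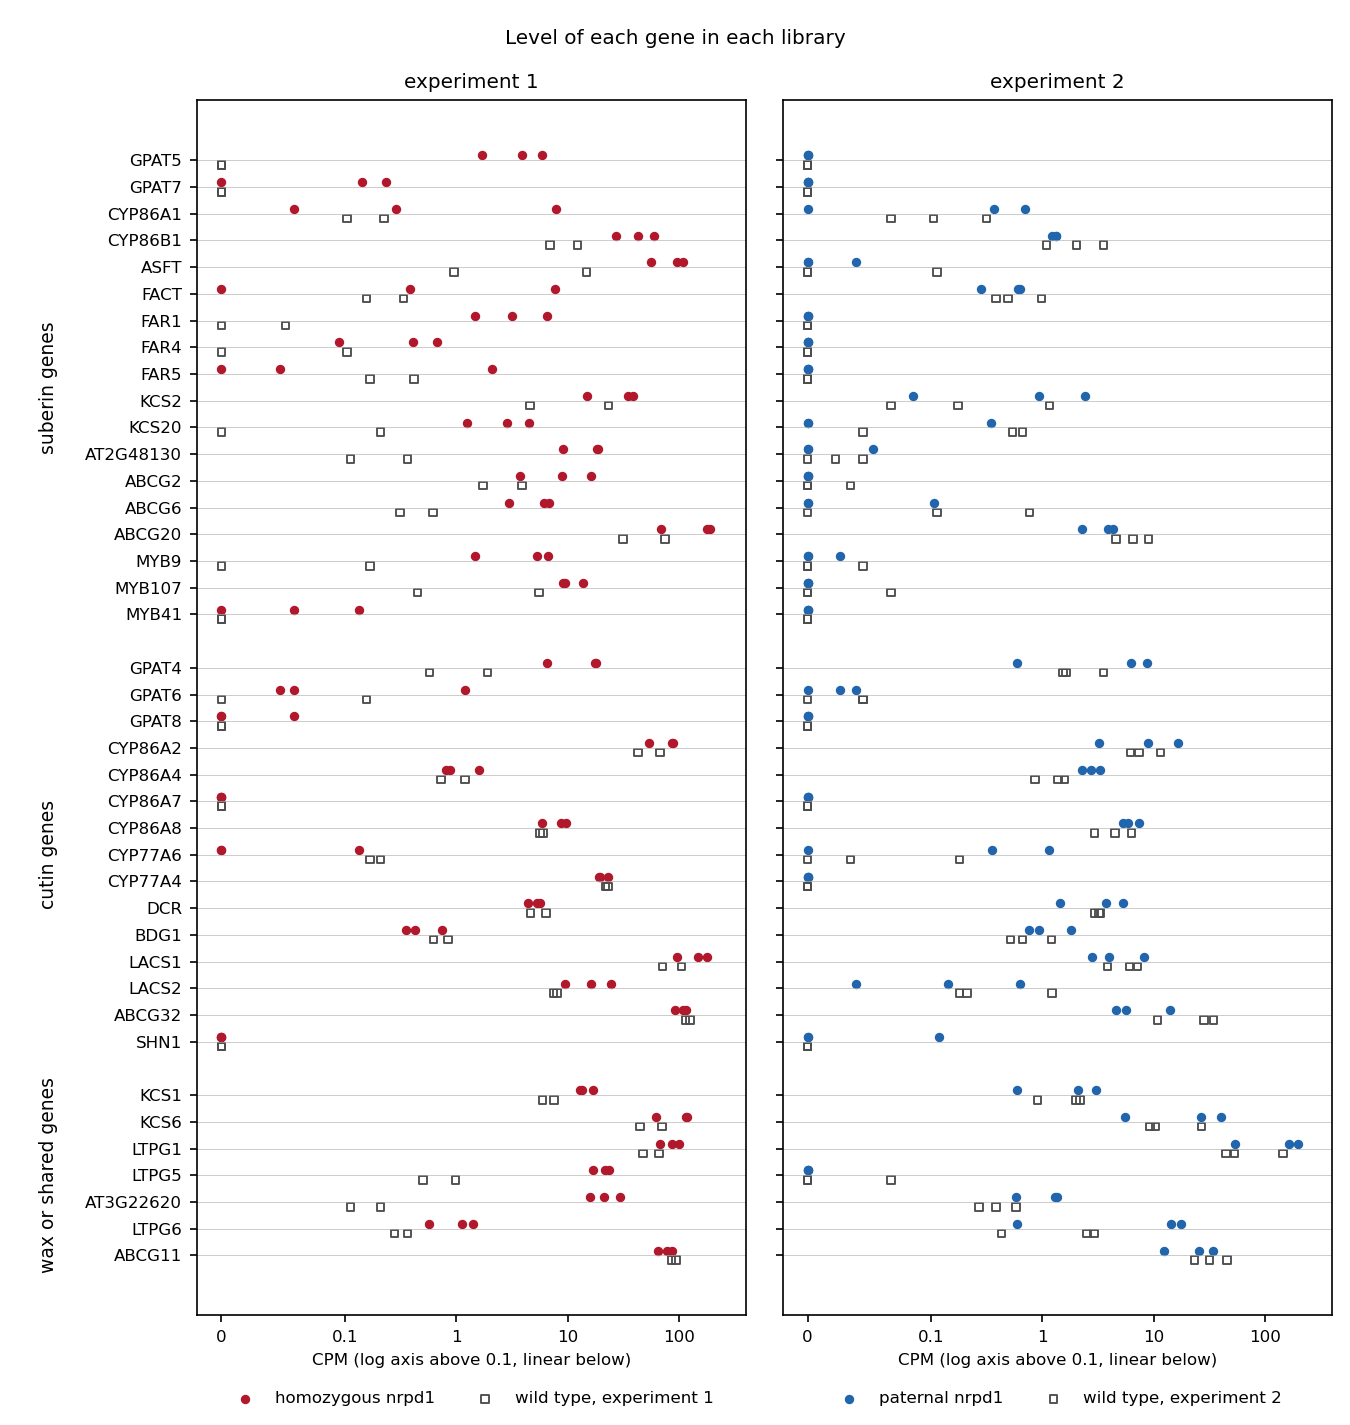
CPM of each of the 40 genes in each library (horizontal axis, log above 0.1 and linear below; circles are mutant and open squares wild-type libraries), experiment 1 on the left and experiment 2 on the right. In experiment 1 the mutant circles lie right of both squares for 9 of 18 suberin genes and 2 of 15 cutin genes, and in experiment 2 most suberin genes lie at or near 0 in both groups.

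In the cutin list, GPAT4, an acyltransferase of leaf and stem cutin, departed furthest. It had 18.1, 17.8 and 6.52 CPM in homozygous nrpd1, against 1.90 and 0.572 CPM in wild type, with no overlap (log2 change 3.52, SE 0.70, edgeR adjusted p = 0.189). LACS2, a long-chain acyl-CoA synthetase of cutin and on the deposited list, was the other cutin gene with no overlap and higher values, at 16.4, 24.8 and 9.56 CPM in homozygous nrpd1, against 7.49 and 8.06 CPM in wild type (log2 change 1.12, SE 0.40, edgeR adjusted p = 0.394). The abundant cutin genes differed little. CYP86A2, a fatty acid hydroxylase of cutin, had 87.7, 86.8 and 53.4 CPM in homozygous nrpd1, against 67.8 and 42.7 CPM in wild type (log2 change 0.46, SE 0.29, edgeR adjusted p = 0.558). LACS1, an acyl-CoA synthetase of wax and cutin, had 180.2, 149 and 95.8 CPM in homozygous nrpd1, against 71.1 and 105.9 CPM in wild type (log2 change 0.68, SE 0.31, edgeR adjusted p = 0.452). Both overlapped between the groups.

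ABCG32, a transporter of cutin precursors, had 108.2, 91.9 and 115.8 CPM in homozygous nrpd1, against 115 and 125 CPM in wild type (log2 change -0.19, SE 0.12, edgeR adjusted p = 0.553). CYP77A4, a P450 enzyme that acts on fatty acids, had 23.1, 19.0 and 19.7 CPM in homozygous nrpd1, against 21.9 and 23.0 CPM in wild type (log2 change -0.12, SE 0.12, edgeR adjusted p = 0.686). CYP77A4 lies within the antisense gene AT5G04670 over all of its 1773 bases. CYP86A8 had 8.74, 9.65 and 5.85 CPM in homozygous nrpd1, against 6.03 and 5.67 CPM in wild type, and CYP86A4 had 1.58, 0.871 and 0.809 CPM, against 0.726 and 1.20 CPM. Each of these overlapped, with log2 changes of 0.46 (SE 0.25) and 0.17 (SE 0.45). Of the other 6 cutin genes, DCR and BDG1 passed the filter with log2 changes of -0.10 and -0.54, GPAT6 and GPAT8 held 20 and 1 reads in the mutant libraries together, and CYP86A7 and the regulator SHN1 held none in any library of experiment 1.

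Set on a common scale per length, the order of the genes differed between the groups. ASFT stood at 47.9 CPM per kilobase of exon in homozygous nrpd1, close to ABCG20 at 51.5 and LACS1 at 45.7, and at 4.31 in wild type, where ABCG20 stood at 18.9 and LACS1 at 28.5. LTPG1 was the highest of the 40 in both groups, at 86.7 and 58.1 CPM per kilobase.

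**Figure D3:**
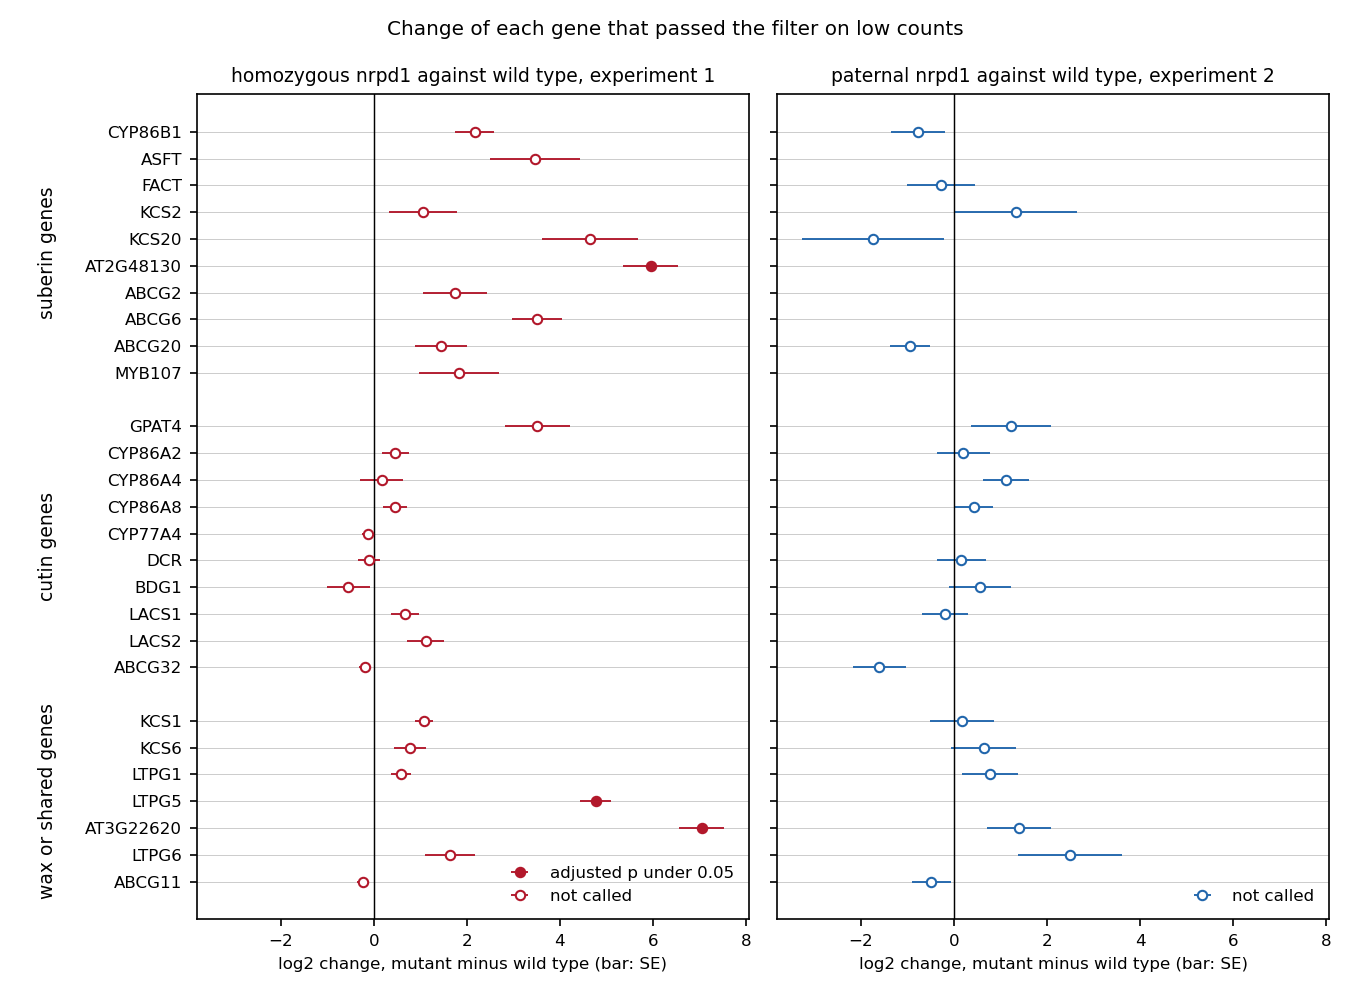
Log2 change (mutant minus wild type, bars are standard errors) of the genes that passed the filter on low counts in homozygous nrpd1 on the left and paternal nrpd1 on the right, filled where the edgeR adjusted p was under 0.05. GPAT5, FAR1 and MYB9, with 3 or fewer wild-type reads, are not drawn, and AT3G22620, LTPG5 and AT2G48130 are the filled points at 7.05, 4.77 and 5.95.

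Among the wax or shared genes, KCS1, an elongase of wax and suberin acids, had 13.4, 16.9 and 12.8 CPM in homozygous nrpd1, against 5.98 and 7.54 CPM in wild type, with no overlap and a small spread (log2 change 1.09, SE 0.19, edgeR adjusted p = 0.146). LTPG1, a lipid transfer protein of wax export, had 87.4, 100.5 and 67.6 CPM in homozygous nrpd1, against 66.4 and 47.7 CPM in wild type, where the lowest mutant and highest wild-type values almost met (log2 change 0.58, SE 0.22, edgeR adjusted p = 0.406). LTPG6, on the deposited list, had 1.12, 1.41 and 0.571 CPM in homozygous nrpd1, against 0.279 and 0.364 CPM in wild type (log2 change 1.63, SE 0.54, edgeR adjusted p = 0.372). KCS6, the main elongase of cuticular wax, had 115.9, 119 and 62.7 CPM in homozygous nrpd1, against 44.9 and 70.4 CPM in wild type (log2 change 0.78, SE 0.34, edgeR adjusted p = 0.442), and overlapped. ABCG11, a transporter shared by wax, cutin and suberin, had 86.5, 78.5 and 65.5 CPM in homozygous nrpd1, against 94.5 and 86.1 CPM in wild type (log2 change -0.23, SE 0.13, edgeR adjusted p = 0.522).

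In experiment 1 the allele-assigned suberin reads almost all carried Ler, the strain of the mother. Maternal share stands here for Ler reads as a percentage of Ler plus Col reads, and a gene read equally from all 3 genomes has 66.7%. Over the 16 suberin genes outside the deposited list, which was left out of allele comparisons in experiment 1, homozygous nrpd1 held 1021, 1072 and 531 Ler reads and 5, 5 and 4 Col reads, against 159 and 429 Ler reads and 5 and 6 Col reads in wild type. Of these genes, 10, 13 and 11 had allele reads in homozygous nrpd1, and 7 and 9 in wild type. The pooled shares were 99.5%, 99.5% and 99.3% in homozygous nrpd1, against 97.0% and 98.6% in wild type. Their lower Wilson bounds were 98.1% or more in homozygous nrpd1, and 93.1% and 97.0% in wild type. Over both wild-type libraries CYP86B1 held 34 Ler and 7 Col reads and KCS20 held 0 Ler and 2 Col reads. Every other gene pooled here had at most 1 Col read there. The median gene of the same libraries had 70.5%, 75.9% and 68.8% in homozygous nrpd1, against 66.9% and 67.2% in wild type. The 9 cutin genes outside the list, of which 3 had allele reads, pooled to 93.8%, 93.6% and 88.4% in homozygous nrpd1, against 89.0% and 80.3% in wild type.

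For single genes, ABCG20 held 629, 563 and 276 Ler reads and 0, 1 and 0 Col reads in homozygous nrpd1, against 129 and 277 Ler reads and 0 and 1 Col reads in wild type. ASFT held 134, 123 and 75 Ler reads and 0 Col reads in homozygous nrpd1, against 0 and 24 Ler reads and 1 and 0 Col reads in wild type. FAR1 and MYB107 held 61 and 83 Ler reads and no Col read in the mutant libraries together. AT3G22620 held 25, 20 and 21 Ler reads and 0 Col reads in homozygous nrpd1 and had no allele read in wild type, and LTPG5 held 9, 5 and 7 Ler reads and 1, 0 and 1 Col reads. Where these genes were high, nearly all their allele reads were Ler. AT2G48130 belongs to the deposited list, and it had 3 Ler and 2 Col reads in a single library.

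In wild type of experiment 1, 4 of the 7 genes that could be set against 2 maternal to 1 paternal were called by edgeR, beside 30.7% of 8371 features. KCS2, with 12 and 90 Ler reads and no Col read, had a log2 ratio of 8.26 above 2 to 1 (SE 0.88, edgeR adjusted p = 0.00254), ABCG20 one of 7.45 (SE 0.39, adjusted p = 1.1e-04) and CYP86A2 one of 3.10 (SE 0.23, adjusted p = 3.3e-04). CYP77A4 was the only one of the 4 with more paternal reads, at 16 and 13 Ler against 31 and 48 Col reads (log2 ratio -2.42, SE 0.33, edgeR adjusted p = 0.00299). Its reads cannot be told apart from those of the antisense gene AT5G04670. Counts called higher were 12.2% and called lower 18.5% of all features. ABCG11 and ABCG32 were read from both alleles near the ratio of genomes, with wild-type shares of 64.5% and 61.2% and of 62.9% and 64.5%.

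**Figure D4:**
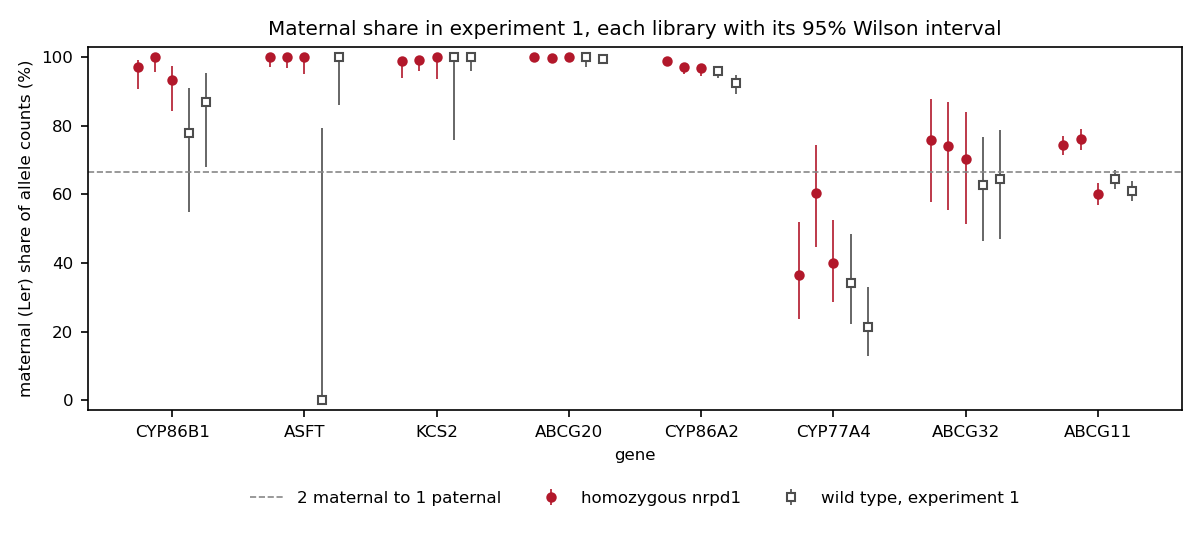
Maternal (Ler) share of allele-assigned reads in each experiment 1 library, with 95% Wilson intervals, for the 8 genes that could be tested (20 or more Ler plus Col reads on average); filled circles are homozygous nrpd1, open squares wild type, and the dashed line marks 66.7%. CYP86B1, ASFT, KCS2, ABCG20 and CYP86A2 lie near 100% in the mutant libraries, CYP77A4 below the line in all 5 libraries, and ABCG32 and ABCG11 around it; the wild-type ASFT point at 0 rests on 1 read.

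The maternal share of the 8 genes tested was not called as different between the genotypes. In edgeR 0 of the 8 were called, beside 0.107% of 8417 features, and 3 had an unadjusted p under 0.05, beside 7.72% of features. No other tool was run. The median log2 change of the ratio over all features was 0.33. CYP86B1 had 97.3%, 100% and 93.4% maternal reads in homozygous nrpd1, against 77.8% and 87.0% in wild type (log2 change of the ratio 2.85, SE 1.00, edgeR adjusted p = 0.592). CYP86A2 had 98.9%, 97.1% and 96.8%, against 96.0% and 92.5% (1.29, SE 0.45, edgeR adjusted p = 0.592), and CYP77A4 had 36.6%, 60.5% and 40.0%, against 34.0% and 21.3% (1.13, SE 0.52, edgeR adjusted p = 0.592). These 3 genes were higher in maternal share in all 3 mutant libraries. ABCG11 was at 74.4%, 76.1% and 60.2% in homozygous nrpd1, against 64.5% and 61.2% in wild type, with replicate 3 below both wild-type libraries. Taken alone, the Ler reads of ASFT, CYP86B1 and ABCG20 had log2 changes of 3.34 (SE 0.88), 2.21 (SE 0.39) and 1.43 (SE 0.50), with edgeR adjusted p = 0.522, 0.220 and 0.709, beside 0.131% of features called, and of the Col reads alone no member was called, beside 0.178%.

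Genes of the deposited list behaved differently in their allele reads. KCS6 had 0 Ler and 432, 471 and 278 Col reads in homozygous nrpd1, against 199 and 210 Ler and 3 and 77 Col reads in wild type. LACS2 had 0 Ler and 33, 51 and 24 Col reads in homozygous nrpd1, against 8 and 14 Ler and 4 and 9 Col reads in wild type. LACS1 had 836, 612 and 1 Ler and 1130, 920 and 1341 Col reads in homozygous nrpd1, against 761 and 921 Ler and 9 and 386 Col reads in wild type. These 3 genes, with AT2G48130, ABCG2, GPAT6, CYP86A7, CYP86A8, BDG1 and LTPG6, make up the 10 members on that list, and for those with allele reads the totals compare different mixtures of Ler and Col reads. Beside them, CYP86A8 had 23, 28 and 0 Ler and 28, 30 and 42 Col reads in homozygous nrpd1, against 33 and 20 Ler and 10 and 8 Col reads in wild type.

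The seed coat is maternal tissue and carries only Ler alleles in wild-type crosses. Its 18 markers summed to 2116, 1700 and 1491 CPM in homozygous nrpd1, against 1618 and 1897 CPM in wild type. The median marker had 35.1, 28.0 and 17.9 CPM in homozygous nrpd1, against 19.9 and 14.0 CPM in wild type, and overlapped too. None of the 17 that passed the filter was called by edgeR, with 12 positive and 5 negative log2 changes. In edgeR 4 had an unadjusted p under 0.05 (BAN, TTG2, TT10 and STK), beside 11.7% of all 18570 features. These 4 lay above both wild-type libraries in all 3 mutant libraries, and 2 other markers lay below both in all 3. TTG2 is on the deposited list. No marker was at 0 in wild type. TT10, a laccase of the seed coat, had 428, 370 and 344 CPM in homozygous nrpd1, against 268 and 326 CPM in wild type, with 6 Col reads in each mutant library beside 4262, 3417 and 4311 Ler reads. BAN, a gene of the inner seed coat, had 215, 168 and 88.9 CPM in homozygous nrpd1, against 21.7 and 13.2 CPM in wild type, and it is on the deposited list, with 3132, 2317 and 1647 Col and 2, 0 and 1 Ler reads in homozygous nrpd1, against 9 and 1 Col and 295 and 189 Ler reads in wild type. AT5G67360, a subtilisin protease of the seed coat, had 802 Ler and 8781 Col reads in wild-type replicate 2, against 4140 and 847 in replicate 1, while the suberin reads of replicate 2 were Ler as elsewhere. The part of seed coat RNA in the suberin values was not tested. In bulk tissue, a change in the number of cells of a type and a change of RNA per cell cannot be told apart.

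In paternal nrpd1 no member was called, and most suberin genes had few or no reads in either group. The 18 suberin genes summed to 5.55, 5.87 and 9.45 CPM in paternal nrpd1, against 11.2, 11.9 and 9.85 CPM in wild type, so that all mutant sums were below all wild-type sums by a small margin. The 15 cutin genes summed to 32.5, 39.1 and 55.1 CPM in paternal nrpd1, against 42.5, 59.3 and 51.9 CPM in wild type, and overlapped. Of the 40 genes, 9 had no read in any of these 6 libraries: GPAT5, GPAT7, FAR1, FAR4, FAR5, MYB41, GPAT8, CYP86A7 and CYP77A4. Over a group, 0 reads allow up to 0.0303 CPM in paternal nrpd1 and 0.0314 CPM in wild type by counting error alone. AT5G04670, the antisense partner of CYP77A4, had 3.62 to 9.16 CPM in paternal nrpd1 and 8.18 to 19.7 CPM in wild type. AT5G22505, which shares 1310 bases with FAR1, had 0 reads in all 6 libraries. Since strand use in counting is not given, the limit from 0 reads need not hold for CYP77A4 or FAR1. By edgeR 0 of the 19 members that passed the filter were called, beside 0 of 18901 features, with 1 member and 1496 features at an unadjusted p under 0.05. DESeq2 called 10 features (0.0478%) and none of the 40. The 5 suberin genes that passed the filter had a median log2 change of -0.78, which was -0.0342 without wild-type replicate 1, the 8 cutin genes one of 0.32, and all tested features one of 0.0148.

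The member with an unadjusted p under 0.05 was ABCG32. It had 14.0, 4.59 and 5.62 CPM in paternal nrpd1, against 10.8, 34.5 and 28.4 CPM in wild type, and overlapped (log2 change -1.61, SE 0.57, edgeR adjusted p = 0.616). ABCG20 had 3.85, 2.26 and 4.30 CPM in paternal nrpd1, against 4.56, 8.96 and 6.53 CPM in wild type (log2 change -0.95, SE 0.43, edgeR adjusted p = 0.616). It was the only suberin gene of 18 with all mutant libraries below all wild-type libraries, an order seen in 5.51% of 26485 features. CYP86A4 was the only cutin gene of 15 with the opposite order, at 2.26, 3.31 and 2.74 CPM in paternal nrpd1, against 1.39, 0.855 and 1.57 CPM in wild type (log2 change 1.13, SE 0.49, edgeR adjusted p = 0.616), beside 5.26% of features.

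The other suberin genes with reads in experiment 2 overlapped between the groups. CYP86B1 had 1.33, 1.32 and 1.21 CPM in paternal nrpd1, against 3.53, 2.03 and 1.08 CPM in wild type (log2 change -0.78, SE 0.57, edgeR adjusted p = 0.662). KCS2 had 0.0849, 0.934 and 2.43 CPM in paternal nrpd1, against 1.16, 0.0675 and 0.175 CPM in wild type (log2 change 1.33, SE 1.31, edgeR adjusted p = 0.727), a wide spread in both groups. FACT had 0.283, 0.622 and 0.607 CPM in paternal nrpd1, against 0.984, 0.383 and 0.489 CPM in wild type (log2 change -0.28, SE 0.72, edgeR adjusted p = 0.895). ASFT, which stood next to ABCG20 per length in homozygous nrpd1, had 0, 1 and 0 reads in paternal nrpd1, against 0, 5 and 0 in wild type. AT2G48130 had 0, 0 and 2 reads in paternal nrpd1, against 1, 1 and 0 in wild type.

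Some lipid transfer genes differed widely among the paternal nrpd1 libraries. LTPG1, the highest of the 40 per length in experiment 1, had 53.6, 197.9 and 163 CPM in paternal nrpd1, against 145, 44.5 and 52.9 CPM in wild type (log2 change 0.77, SE 0.61, edgeR adjusted p = 0.674). LTPG6 had 0.594, 17.7 and 14.4 CPM in paternal nrpd1, against 2.50, 0.428 and 2.90 CPM in wild type (log2 change 2.50, SE 1.11, edgeR adjusted p = 0.616). In both genes paternal nrpd1 replicate 1 lay with the wild-type libraries and replicates 2 and 3 above all of them. Their seed coat marker sums were 333 CPM in replicate 1 and 534 and 969 CPM in replicates 2 and 3, against 580, 600.0 and 545 CPM in wild type, and the part of these markers in the result was not tested. AT3G22620 had 1.30, 1.36 and 0.581 CPM in paternal nrpd1, against 0.581, 0.270 and 0.384 CPM in wild type (log2 change 1.40, SE 0.69, edgeR adjusted p = 0.617), and was read from both alleles, with 24, 12 and 9 Ler and 10, 8 and 5 Col reads in paternal nrpd1, against 7, 5 and 5 Ler and 2, 5 and 3 Col reads in wild type. LTPG5, its neighbour, had 0 reads in paternal nrpd1, against 0, 3 and 0 in wild type.

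The remaining named cutin and wax genes overlapped too. GPAT4 had 0.594, 6.26 and 8.73 CPM in paternal nrpd1, against 3.53, 1.62 and 1.54 CPM in wild type (log2 change 1.23, SE 0.85, edgeR adjusted p = 0.656). CYP86A2 had 3.23, 8.87 and 16.7 CPM in paternal nrpd1, against 11.5, 7.36 and 6.18 CPM in wild type (log2 change 0.20, SE 0.57, edgeR adjusted p = 0.908). LACS1 had 2.80, 3.93 and 8.15 CPM in paternal nrpd1, against 6.08, 7.18 and 3.84 CPM in wild type (log2 change -0.20, SE 0.49, edgeR adjusted p = 0.891). Paternal nrpd1 replicate 1 was the lowest mutant library in all 3 of these genes. CYP86A8 had 7.30, 5.29 and 5.86 CPM in paternal nrpd1, against 4.47, 2.95 and 6.29 CPM in wild type. KCS6 had 5.52, 26.8 and 40.0 CPM in paternal nrpd1, against 26.7, 9.30 and 10.4 CPM in wild type (log2 change 0.64, SE 0.70, edgeR adjusted p = 0.752), and KCS1 had 0.594, 2.10 and 3.01 CPM, against 2.01, 0.9 and 2.17 CPM.

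In experiment 2, 3 of the 4 genes with enough allele reads were called as maternal. In wild type, edgeR called CYP86A2 with 37, 56 and 30 Ler and 0, 1 and 0 Col reads, LACS1 with 46, 89 and 24 Ler and 0, 2 and 1 Col reads, and KCS6 with 35, 22 and 15 Ler and no Col reads, beside 22.1% of 7421 features called and 9.9% called as maternal. Their log2 ratios above 2 to 1 were 5.64 (SE 0.70, edgeR adjusted p = 1.2e-05), 4.62 (SE 0.55, adjusted p = 8.4e-06) and 7.18 (SE 1.14, adjusted p = 2.7e-04). KCS6 and LACS1 are on the list left out in experiment 1, so they have no such test there. Wild type of experiment 1 held 409 Ler and 80 Col reads of KCS6, and 1682 Ler and 395 Col reads of LACS1. The mean shares of its libraries were 85.8% (SD 17.9) and 84.6% (SD 20.1), so these libraries differed widely. ABCG32 had only 10 Ler and 8 Col reads, all in wild type, and LTPG1 had no allele read. No suberin gene had enough allele reads to be tested. The 18 suberin genes together held 4, 19 and 8 Ler and 1, 5 and 2 Col reads in wild type. In paternal nrpd1 they held 3, 4 and 7 Ler and 1, 1 and 7 Col reads, so the nearly complete Ler share of experiment 1 was not seen in these few reads. ABCG11, also tested and not called, had shares of 64.7%, 80.4% and 85.1% in paternal nrpd1, against 66.7%, 69.4% and 79.8% in wild type, and overlapped. The share of none of the 4 genes was called as different in paternal nrpd1 by edgeR, with 0 at an unadjusted p under 0.05, beside 0.0678% of 7371 features.

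The effects of the mutants were compared directly as an interaction over all 11 libraries, in which mutant parent and experiment change together. None of the 33 members tested was called by edgeR, beside 0 of 20078 features. An unadjusted p under 0.05 was found for 7 members and 1467 features, and in all 7 the change was larger in homozygous nrpd1: 5 of 16 suberin, 0 of 10 cutin and 2 of 7 wax or shared genes. AT3G22620 had the lowest p, with a difference of log2 changes of 5.64 (SE 0.80, edgeR adjusted p = 0.0862), and CYP86B1 had 2.96 (SE 0.69, edgeR adjusted p = 0.514). ABCG20 had 2.40 (SE 0.67, edgeR adjusted p = 0.594). DESeq2 called AT3G22620, LTPG5 and CYP86B1, beside 0.559% of 19153 features. For genes with no read in experiment 2, such as GPAT5 and FAR1, a fitted difference depends on the count added to zeros and is not given.

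Further genes of these pathways gave no call. Of 7 further suberin genes, 12 further cutin genes and 21 further wax genes, none was called by edgeR in either comparison of total expression. In homozygous nrpd1, 5 of them (1 suberin, 1 cutin and 3 wax) had an unadjusted p under 0.05, all higher, beside 11.7% of all features, and the median log2 changes were 0.03, 0.11 and 0.10 over the 5, 5 and 17 that passed the filter. AT4G24140, which encodes a hydrolase of the family of the cutin gene BDG1, had 4.34, 12.2 and 2.62 CPM in homozygous nrpd1 and 0 reads in wild type, at least 72.7-fold higher against a floor of 3 counts over the wild-type group (edgeR adjusted p = 0.188). KCR1, the reductase of fatty acid elongation, had 235, 234 and 234 CPM in homozygous nrpd1, against 189 and 199.9 CPM in wild type (log2 change 0.27, SE 0.07, edgeR adjusted p = 0.303), and KCS9 had 21.1, 22.2 and 19.2 CPM, against 16.7 and 15.5 CPM. In paternal nrpd1, 1 of these genes had an unadjusted p under 0.05: ACC1, the acetyl-CoA carboxylase that supplies malonyl-CoA, had 11.7, 7.90 and 11.0 CPM in paternal nrpd1, against 14.2, 23.7 and 25.2 CPM in wild type, with no overlap (log2 change -1.04, SE 0.33, edgeR adjusted p = 0.616). CER1, an enzyme of alkane wax synthesis, had 0.0566, 0.117 and 0.132 CPM in paternal nrpd1, against 0.581, 0.248 and 0.349 CPM in wild type, and CER2, a wax elongation factor, had 0.0849, 4.59 and 12.9 CPM, against 1.12, 0.923 and 0.559 CPM.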

How the data were processed

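RNA of hand-dissected endosperm was sequenced in 11 libraries, with TruSeq stranded kits in experiment 1 and SMARTer kits in experiment 2, per the labels' protocols. The values are read counts per gene as deposited by the authors, for all reads and for reads assigned to Col or Ler. TAIR10 is the build, and TopHat, HTSeq, FastQC, Trim Galore and cutadapt are tools, given without versions in the submitters' processing notes, and strand use in counting is not given in the sources used here. Depth was 15926510 to 20817788 counts a library in experiment 1, of which 17.8% to 18.4% had an allele. It was 24845721 to 35629462 counts in experiment 2, of which 7.05% to 7.82% had one, and this limits allele comparisons to abundant genes. Summary lines naming no gene, 11.6% to 13.3% of experiment 2 counts, were left out. Columns of per-sample values not used numbered 0.

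Members and lists were chosen with earlier results of these data known. edgeR 4.0.16 (limma 3.58.1, R 4.3.3) fitted quasi-likelihood models to all features of each experiment after its filter on low counts, and p-values adjusted by Benjamini-Hochberg were called under 0.05. CPM used TMM library sizes. Maternal share was tested on Ler and Col counts of features averaging at least 20 allele counts, without the 5081 genes of a deposited list in experiment 1. DESeq2 1.42.0 and the other settings were alternatives. The tests were tested on simulated data. Counting error is all that the Wilson intervals (95%), the exact intervals and the limits from 0 counts cover (Python 3.11.15, scipy 1.17.1, pandas 2.3.3). Given in full were members called anywhere, the 8 lowest p in each comparison of total expression and the 4 highest wild-type suberin and cutin genes of each experiment. Of further pathway genes the 3 lowest p in each comparison were named, and the rest were added for their roles.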

Additional observations from a re-analysis of the deposited data

How the results depend on the processing

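In homozygous nrpd1 the 3 members and 62 features called by edgeR became 11 and 524 with DESeq2 and 1 and 12 in 1 fit of all 11 libraries. Leaving out a mutant library gave 1 to 3 members and 6 to 44 features, and leaving out either wild-type library gave 0 of both. In paternal nrpd1 the 0 features called became 10 with DESeq2 and 1 in the fit of 11 libraries. For the difference between the mutants, DESeq2 called 3 members and 107 features against 0 and 0, and leaving out a mutant library gave 0 to 1 features. For maternal share in homozygous nrpd1, with 0 members and 9 features called, keeping the deposited list gave 1 member, LACS2, and 732 features. It gave 7 to 23 features without a mutant library, 129 without wild-type replicate 1 and 22 without replicate 2. In paternal nrpd1 the 5 features called for maternal share became 3 at 50 allele counts, 3 to 10 without a mutant library and 2 without wild-type replicate 3, and in wild type of experiment 2 the 3 members called against 2 to 1 became 1 at 50 allele counts. The suberin median in paternal nrpd1, -0.78, ran from -0.73 to -0.41 without a mutant library and was -0.0342 without wild-type replicate 1. In homozygous nrpd1, leaving out any library moved the suberin median to 3.15 to 4.07 and the cutin median to 0.11 to 0.50. The cause of these shifts was not tested.

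Replicate numbers did not pair the libraries of experiment 2, where same-numbered libraries correlated at -0.461, -0.630 and 0.108 in their deviations from the group means. In experiment 1 same-numbered libraries correlated at 0.213 and 0.321, and the crossed pairs of these libraries at -0.213 and -0.321. With 2 wild-type libraries such values mirror each other by construction, so pairing in experiment 1 could not be decided. With the replicate block, 12 members and 302 features were called in homozygous nrpd1, and 3 members (CYP86A2, CYP86B1 and ASFT) and 230 features for maternal share.

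Values of single genes that changed sign were small or noisy, and none of these results was called. Under the replicate block, CYP86A2 in paternal nrpd1 was at -0.0078 and the maternal share of KCS6 there at -0.0295, and under DESeq2 the difference between the mutants for CYP86A8 was -0.0249. Without a mutant library, log2 changes ran from -0.20 to 0.36 for CYP86A4 in homozygous nrpd1, and in paternal nrpd1 from -0.47 to 0.58 for CYP86A2, from -0.76 to 0.0512 for LACS1 and from -0.33 to 0.575 for KCS1. Without 1 wild-type library, they were -0.14 for CYP86A4, 0.0019 for LACS1, -0.14 for KCS1 and 0.21 for FACT. Without a mutant library, the difference between the mutants ran from -0.88 to 0.86 for KCS2, from -0.13 to 0.89 for CYP86A2, from -0.30 to 0.69 for KCS6, from -0.57 to 0.24 for LTPG1 and from -0.105 to 0.22 for CYP86A8. Without 1 wild-type library it was 1.315, 0.30 or 0.11 for KCS2, -0.0223 or -0.0687 for CYP86A2, -0.12 or -0.545 for KCS6, 0.0744, 0.11 or 0.0743 for LTPG1 and -0.0172 or -0.23 for CYP86A8. The maternal share was 0.28 for KCS2 in homozygous nrpd1 without wild-type replicate 2 and ran from -0.25 to 1.16 for KCS6 in paternal nrpd1 without a mutant library. Of the other values of single genes under all alternatives, 684 kept their direction and side of the threshold, 18 passed it and 11 no longer did. With 2 wild-type libraries in experiment 1, leaving out 1 assumes that the lone library varies like the mutant ones.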
